A study of Mus musculus with 18 samples.

Results

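The baseline of the mouse knee joint surface was described in 6 of the 18 cartilage RNA-Seq libraries of an anterior cruciate ligament (ACL) rupture study. They are all the libraries that the labels give as naïve (treatment day_7_naive, described as an uninjured knee), and no measured value was used to choose them. The naïve animals were male C57Bl/6J mice, assigned to groups at 12 weeks of age, whose ligament was left intact. The other 12 libraries came from mice of the same strain whose right ACL was ruptured by a single mechanical load: 3 libraries of injured and 3 of contralateral (left) knees at day 1, and 3 of each at day 7. Isoflurane was given for the loading and buprenorphine for pain, and whether the naïve mice received either is not given in the sources used here. The tissue was the soft cartilage of the femoral condyles, taken off down to its border with the calcified layer, and several knees went into each library. The study's scheme gives 2 mice in each day 1 pool and 4 in each day 7 pool, the latter because cartilage was partly lost by day 7. For the naïve group it gives 6 mice with 2 knees in each pool, left and right knees apart, so that naïve libraries share mice. The labels do not say which ones, whereas the series' own description gives pools of 4 mice throughout and names the medial caps. All SDs below are therefore over 6 libraries and not over mice, and can understate the spread between mice. The naïve libraries held between 16074762 and 29407822 estimated counts, with a median of 25084935.

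Articular cartilage is a thin tissue without vessels or nerves, in which sparse chondrocytes keep up a matrix of type II collagen and aggrecan. Cells at its surface make lubricin, and deeper cells at the calcified border make type X collagen. Underneath lie bone and marrow, where red cells, neutrophils and platelets are made, and the joint is lined by synovium and crossed by muscle, tendon and fat. The cell type label of every library is chondrocyte. The defining chondrocyte markers Col2a1, Acan, Comp, Hapln1, Matn3 and Sox9 were found in all 6 naïve libraries. RNA of marrow and muscle, and of the type I collagen genes Col1a1 and Col1a2 together, was more abundant, as described below. The libraries are therefore treated here as tissue of the joint surface and not as a single cell type. The sex genes were those of males: the 4 Y-linked genes Eif2s3y, Ddx3y, Uty and Kdm5d summed to a mean of 29.4 TPM (transcript abundance per length, scaled to a fixed total), and the X-inactivation transcript Xist stood at 0.0206 TPM.

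Before any comparison, the naïve libraries were set beside the other 12, because they did not sit together. Over 16072 genes with a mean of at least 1 CPM (counts scaled to the normalised library size) in the naïve libraries, the number of genes that differed more than 2-fold, on a scale of CPM plus 1, was counted for each pair of libraries. For 4 of the 6 naïve libraries the nearest library by this count belonged to another group, and for 2, replicates 2 and 3, it was a naïve one. By median absolute log2 difference these 2 were nearest to day 7 contralateral replicate 3, at 0.1335 and 0.1429. The lowest values with a naïve library were 0.1408 and 0.1512. By rank correlation both were likewise nearest to libraries of other groups. Replicate 1 was nearest to day 1 contralateral replicate 1, with 81 genes apart, replicate 4 to day 1 injured replicate 1, with 80, and replicate 6 to day 7 contralateral replicate 2, with 84. Replicate 6 was also 88 genes from day 1 contralateral replicate 2 and 88 from day 7 contralateral replicate 3. Replicate 5 was nearest to day 1 injured replicate 2, with 100 genes, and day 1 contralateral replicate 3, with 106, while between 302 and 546 genes separated it from the other naïve libraries. Among those other naïve libraries, from 97 genes (replicates 2 and 3) to 325 (replicates 1 and 6) were apart. No naïve pair looked like 1 library deposited under 2 labels (chi-square per gene of at least 20.5), a check that bears on nothing else. Replicate 5 is named below wherever it decides a value.

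Most of the TPM in these total RNA libraries belonged to short noncoding transcripts. Nuclear protein-coding genes held only 24.2% ± 2.54 (SD, n = 6) of the TPM, and processed pseudogenes held 36.4% ± 5.16. Nearly all of the pseudogene share came from Gm12895 and Gm12896, each at 179610 ± 26044 TPM, the highest value of any gene. They lie on chromosome 4 at chr4:122455210-122455435 and chr4:122122847-122123072 (GRCm38). Their transcripts, of 226 bases each, are shown because 224 of these bases are the same in both, so that the reads of one cannot be told from those of the other. The deposited values of both are equal in each library. In the sequences below, from GENCODE vM21, capitals mark the bases outside the shared stretch.
Gm12895: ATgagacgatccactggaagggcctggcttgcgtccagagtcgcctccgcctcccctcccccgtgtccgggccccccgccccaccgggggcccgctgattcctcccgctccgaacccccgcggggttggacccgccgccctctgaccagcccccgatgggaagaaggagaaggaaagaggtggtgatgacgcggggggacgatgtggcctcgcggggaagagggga
Gm12896: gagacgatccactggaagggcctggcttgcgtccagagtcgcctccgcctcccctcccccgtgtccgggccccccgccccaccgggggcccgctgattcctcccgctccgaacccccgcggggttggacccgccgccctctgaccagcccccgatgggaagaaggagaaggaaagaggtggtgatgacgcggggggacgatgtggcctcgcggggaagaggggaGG
After subtraction of the fragment length, an effective length of only 66.6 to 77.6 bases was left to each of them, and TPM divides by that length. Gm12895 took 2.75% of the estimated counts. The second pair, Rn7s1 and Rn7s2, the RNA of the signal recognition particle, stood at 123140 ± 14993 TPM each, and their 300-base transcripts are identical. Below these came the mitochondrial ribosomal RNA mt-Rnr2 (15243 ± 3112 TPM), Rpph1 (14707 ± 2105), the RNA of RNase P, the ribosomal RNA annotation CT010467.1 (14169 ± 1871), Mir6236 (7437 ± 7421), mt-Rnr1 (5563 ± 1672) and Rmrp (5429 ± 669), the RNA of RNase MRP. To set tissues beside each other, levels are therefore also given as percent of the TPM of nuclear protein-coding genes.

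Among protein-coding genes the globins Hbb-bs, Hba-a2 and Hba-a1 came first. The beta-globin gene Hbb-bs reached 16179 ± 2234 TPM, with a lowest value of 13218 in replicate 2 and a highest of 19498 in replicate 3. Hba-a2 reached 14368 ± 3051 TPM, Hba-a1 4737 ± 968 and Hbb-bt 2589 ± 452. The 4 globin genes together held 15.6% ± 1.27 of the nuclear protein-coding TPM. The division between Hba-a1 and Hba-a2, and between both beta-globin genes, is uncertain because these copies are nearly identical. The calprotectin subunits S100a8 (4393 ± 861 TPM) and S100a9 (3509 ± 808), which fill the cytosol of neutrophils, ranked between Hba-a1 and Hbb-bt. Ngp (1213 ± 161 TPM) and Ltf (710 ± 136), proteins of neutrophil granules, were lower. Lyz2, the lysozyme of myeloid cells, stood at 857 ± 98.5 TPM.

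Of the 25 most abundant protein-coding genes, 10 encode replication-dependent histones, whose transcripts mostly lack a poly(A) tail and remain in libraries of total RNA. Hist1h4k was highest among them at 1122 ± 205 TPM, and the 67 genes of this kind held 8.76% ± 0.834 of the nuclear protein-coding TPM. Their copies are close in sequence, so that single values are uncertain here too. The type I collagen genes Col1a1 (1093 ± 352 TPM) and Col1a2 (759 ± 222) and the matrix protein Sparc (620 ± 126) were the only matrix genes of the 25. The rest were Actb (1466 ± 202), Eef1a1 (942 ± 120) and Tmsb4x (817 ± 143). Together the 25 genes held 25.9% ± 1.18 and the first 1000 genes 64.5% ± 1.42 of the nuclear protein-coding TPM.

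**Figure D1:**
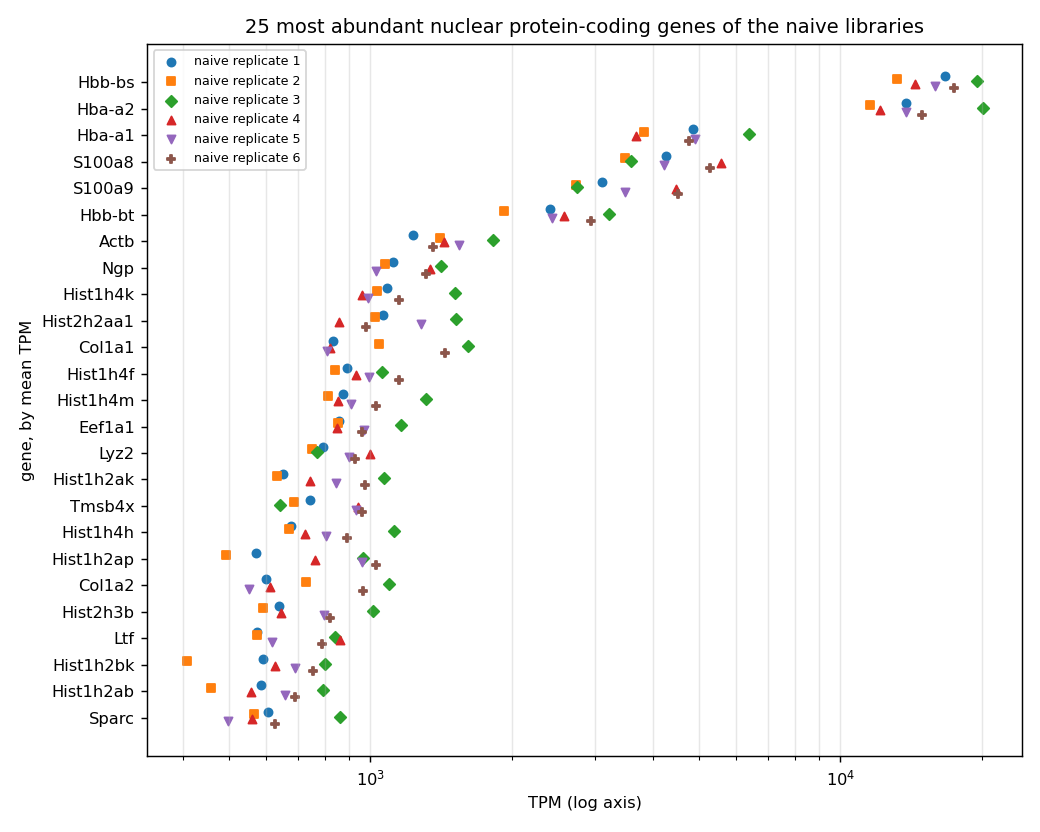
TPM (log axis) of the 25 nuclear protein-coding genes with the highest mean in the naïve libraries, with 1 symbol for each library. The globins Hbb-bs and Hba-a2 stand above all other plotted genes in each of the 6 libraries, Hbb-bs at 13218 TPM or more, and replicate 3 holds the highest value of Hbb-bs, Hba-a2 and, at 1617 TPM, Col1a1.

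Cartilage genes were present at moderate levels. The 23 genes of the chondrocyte list summed to 922 ± 263 TPM, or 0.379% ± 0.0811 of the nuclear protein-coding TPM, and 22 of them reached a mean of 1 TPM. Col2a1, which encodes type II collagen, ranked 70 among nuclear protein-coding genes, with values of 364, 254, 593, 331, 313 and 283 TPM in replicates 1 to 6. Replicate 3 was apart from the rest, which lay close together. The matrix protein Comp stood at 105 ± 28.3 TPM and aggrecan (Acan), the main proteoglycan, at 27.5 ± 11.01. The linkers Hapln1 (16.8 ± 5.01 TPM) and Matn3 (10.5 ± 2.76) were lower, and the transcription factor Sox9, the master regulator of chondrocytes, stood at 2.77 ± 0.734. Matn1, a matrilin of non-articular cartilage, was the only member below 1 TPM (0.950 ± 0.597).

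Genes of the cartilage surface and of its deep border were both detected. Lubricin (Prg4) stood at 352 ± 164 TPM, close to Col2a1, with a low of 183 in replicate 6, a median of 343 and a high of 641 in replicate 5. Abi3bp (9.50 ± 2.26 TPM) and Erg (5.51 ± 0.931), both used as markers of superficial cells, were lower. Of the hypertrophic list, Col10a1, the type X collagen of the calcifying zone, ranged from 34.9 TPM in replicate 4 to 112 in replicate 3, with a median of 54.3. Mmp13, a collagenase, stood at 56.1 ± 21.1 TPM and the growth factor Ihh at 1.04 ± 0.435.

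The bone list exceeded the chondrocyte list in every library. Its 15 genes summed to 2677 ± 695 TPM, 3.02 ± 0.975 times the chondrocyte sum, with ratios from 2.25 to 4.78. Col1a1 and Col1a2 made up most of this sum, Col1a1 alone 40.8% of it. Together they held 0.762% of the nuclear protein-coding TPM, against 0.379% for the whole chondrocyte list. Without this pair the mean sum of the bone list would lie below that of the chondrocyte list. The order of both lists therefore depends on this pair of type I collagen genes, and not only the ratio. The ratio is no measure of bone against cartilage. Osteocalcin was read from Bglap (226 ± 66.3 TPM) and its near copy Bglap2 (139 ± 35.2). Dmp1 (14.1 ± 3.72 TPM) and Sost (5.99 ± 1.14), genes of osteocytes embedded in bone, were found in all libraries. The osteoclast genes Acp5 (143 ± 41.8 TPM), Mmp9 (135 ± 21.0) and Ctsk (94.9 ± 23.1), the last a collagen-digesting protease, were of similar level, and Mmp9 is also made by neutrophils.

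The erythroid and neutrophil lists, of cells made in marrow, were the largest of the tissue lists. The erythroid list, of which 13 of 14 genes were analysed, held 15.9% ± 1.29 of the nuclear protein-coding TPM, from 14.3% in replicate 4 to 17.99% in replicate 3, and was 43.1 ± 8.09 times the chondrocyte sum. Beyond globin, Alas2, which starts haem synthesis in red cell precursors, stood at 207 ± 38.9 TPM and the red cell anion channel Slc4a1 at 211 ± 39.7. The neutrophil list held 5.13% ± 0.882, from 4.08% in replicate 3 to 6.54% in replicate 4. It included granule enzymes of immature cells, namely Mpo (241 ± 64.1 TPM), Elane (181 ± 48.7) and Prtn3 (134 ± 39.6). The B lineage list (0.154% ± 0.0334) included Rag1 (4.21 ± 1.26 TPM) and Dntt (4.72 ± 1.59), which rearrange antigen receptor genes in precursors. Of the platelet list (0.143% ± 0.0141), Ppbp stood at 166 ± 19.8 TPM. The proliferation genes Mki67 (94.5 ± 14.2 TPM) and Top2a (79.5 ± 9.56) exceeded Acan in all 6 libraries. In bulk tissue more cells of a type and more RNA per cell cannot be told apart, and a list's sum also depends on which genes it holds, so these sums are no cell shares.

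**Figure D2:**
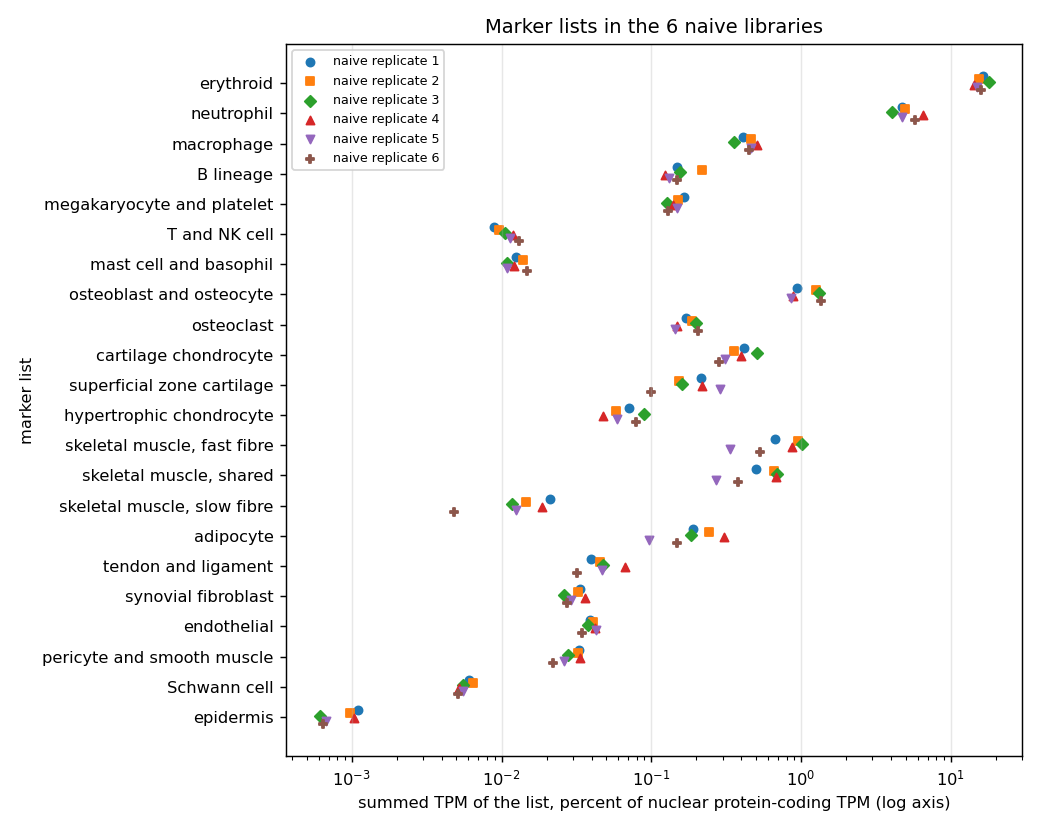
Summed TPM of 22 marker lists as percent of nuclear protein-coding TPM (log axis), with 1 symbol for each naïve library. The erythroid and neutrophil lists stand above 4% in all 6 libraries, and the chondrocyte list between 0.285% and 0.509%.

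Muscle and fat were present and uneven. The 3 muscle lists together held 1.27% ± 0.442, with 1.19%, 1.62%, 1.73%, 1.57%, 0.619% and 0.914% in replicates 1 to 6. Replicates 5 and 6 were low. The fast fibre genes Mylpf (324 ± 123 TPM), Tnnt3 (318 ± 124) and the myosin heavy chain Myh4 (181 ± 91.0) stood far above slow fibre genes such as Myl2 (10.2 ± 4.07) and Myh7 (2.54 ± 1.60). The adipocyte list held 0.195% ± 0.0734, from 0.0970% in replicate 5 to 0.307% in replicate 4. Its most abundant gene was Cfd, which encodes adipsin (168 ± 67.4 TPM), and the hormone gene Adipoq stood at 25.2 ± 9.54 TPM.

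Lining, vessel and nerve genes were low. The synovial fibroblast list held 0.0308% ± 0.00378, with Pdgfra at 10.2 ± 1.74 TPM and Thy1 at 5.51 ± 0.747. Of the tendon and ligament list (0.0465% ± 0.0117), Scx stood at 1.37 ± 0.528 TPM and Tnmd at 2.95 ± 1.45. The endothelial list held 0.0395% ± 0.00317, with Pecam1 at 15.4 ± 1.93 TPM, and the pericyte and smooth muscle list 0.0292% ± 0.00453. The macrophage list held 0.441% ± 0.0519, but Lyz2, which neutrophils also express, made up 80.8% of it, and Csf1r, the growth factor receptor of macrophages, stood at 28.6 ± 5.05 TPM. Of the T and NK cell list, Nkg7 stood at 17.03 ± 5.20 TPM and Cd3e at 1.06 ± 0.312. The Schwann cell list had 2 of 8 members at 1 TPM or more, and its defining gene Sox10 (0.160 ± 0.0654 TPM) was below that. The epidermis list had 1 of 7, and its defining keratins Krt5 (0.00901 ± 0.00989 TPM) and Krt14 (0.00966 ± 0.0237) were close to 0.

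Variation between the naïve libraries was expressed as a biological coefficient of variation (CV), the CV of normalised counts less the part that counting error gives. Over 16179 genes its median was 0.104, with quartiles of 0.0642 and 0.173, and 342 genes (2.11%) had a CV above 0.5. Of these 342, 90 were highest in replicate 5, 89 in replicate 6 and 68 in replicate 4, against 25 in replicate 1, 40 in replicate 2 and 30 in replicate 3. Replicate 5 was thus highest for 26.3% of them, where it was highest for 21.2% of all 16179 genes, and the same shares were 26.0% and 17.5% for replicate 6, 19.9% and 14.4% for replicate 4, and 7.31% and 18.4% for replicate 1. Of the 342, 117 were lowest in replicate 1 and 74 in replicate 5. The platelet, proliferation and Y-linked lists were the steadiest, with median CVs of 0.0844, 0.0914 and 0.0576, and the erythroid list had 0.115. Cartilage and bone were in between, at 0.232 for the chondrocyte, 0.223 for the superficial zone and 0.199 for the osteoblast list. The adipocyte list (0.418), the fast fibre list (0.424), the acute inflammation list (0.533) and the interferon-stimulated list (0.675) varied most of the tissue and response lists of at least 8 genes. The slow fibre list, of 7 genes, had 0.432. Replicate 5 decided the value of the acute inflammation list, which summed to 62.5 TPM there and to 8.35 to 13.2 TPM in the other naïve libraries, and whose median CV was 0.247 without it. It was also the lowest library for the adipocyte and fast fibre lists, whose median CVs were 0.319 and 0.330 without it, whereas that of the interferon-stimulated list was 0.757.

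**Figure D3:**
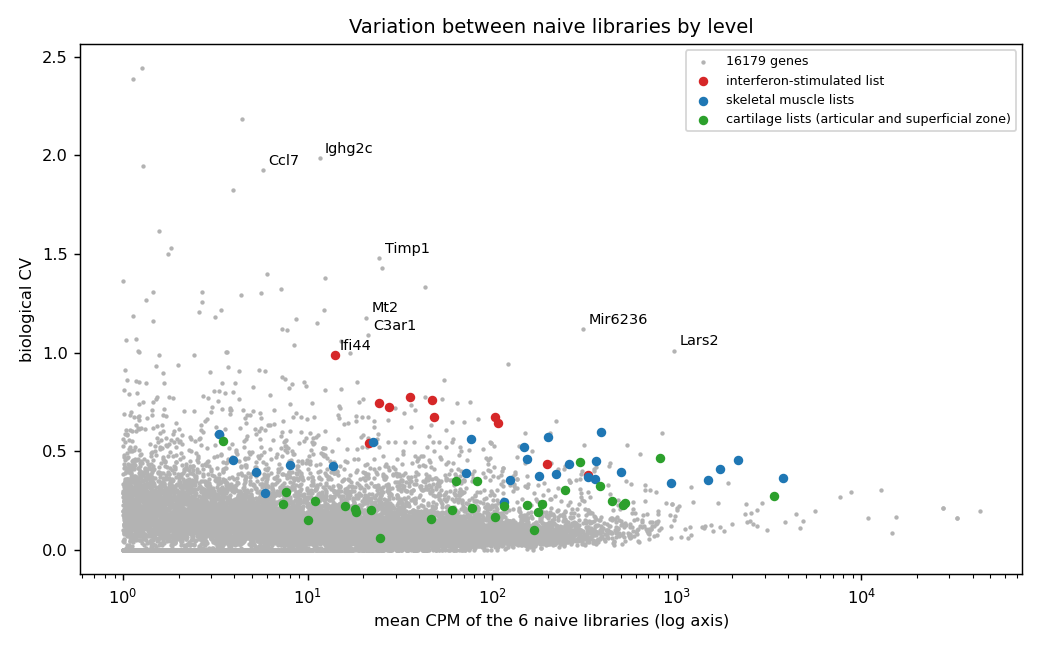
Biological CV of 16179 genes against their mean CPM (log axis) in the naïve libraries. The median CV is 0.104 over all genes, 0.232 over the chondrocyte list, 0.424 over the fast fibre list and 0.675 over the interferon-stimulated list.

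The 10 steadiest genes of at least 100 CPM were Kdm2a, a histone demethylase, Zdhhc5, a palmitoyltransferase, the cohesin subunit Stag1, the adaptor Ywhah, the kinases Pdpk1 and Riok3, the phosphatases Ppp2ca and Ptpn11, the signalling adaptor Tab2 and the transporter Slc35e1. Kdm2a stood between 164 and 171 CPM with a median of 167, which is no more spread than counting gives, and the CV of all 10 was at most 0.0144.

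The first block of variable genes was highest in replicate 5. Timp1, an inhibitor of matrix metalloproteinases, stood at 6.18, 12.1, 9.72, 11.05, 98.4 and 9.59 CPM in replicates 1 to 6, a CV of 1.48. The chemokine Ccl7 reached 28.2 CPM in replicate 5 against 0.876 to 1.84 in the others. The same held for Chl1, the pattern recognition protein Ptx3, the hyaluronan-binding protein Tnfaip6, the metallothionein Mt2, the protease Mmp3, the complement receptor C3ar1, the membrane protein Pdpn and the scavenger receptor Msr1, all highest in replicate 5. Without replicate 5 the CV of these 10 genes fell to between 0.105 and 0.669, for Timp1 to 0.218. They were named for a large CV and grouped by their highest library, so that a fall follows from the choice. The acute inflammation list summed to 62.5 TPM in replicate 5, and its member Ccl2, a chemokine that attracts monocytes, to 15.4 TPM against a highest value of 1.09 in the others. Il1b, the most abundant member, was less uneven, with 8.83 TPM in replicate 5 and 3.56 to 6.55 elsewhere. The fast fibre, shared muscle and adipocyte lists were lowest in replicate 5, and Prg4 was highest there. Prg4 did not stand for the superficial zone list, whose members Cilp and Dkk3 were lowest in replicate 5. The median log2 deviation of that list was -0.341 there. Of the macrophage list, Trem2 reached 9.58 TPM in replicate 5 against 2.36 to 3.51 in the others. Adgre1, Cd68 and Cx3cr1 were also highest in replicate 5, whereas Cd163 and Mrc1 were lowest there. Whether tissue makeup has a part in this block was not tested.

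Replicate 5 shared these levels with libraries of the ruptured mice. On a scale normalised over all 18 libraries, Timp1 stood at 94.1 CPM in naïve replicate 5, 93.8 in day 1 contralateral replicate 3 and 87.7 in day 1 injured replicate 2. The remaining libraries of the day 1 groups were at 5.26 and 8.06 CPM (contralateral) and at 15.3 and 8.70 CPM (injured). Ccl7 stood at 26.9, 18.4 and 17.4 CPM in the same 3 libraries and at most at 2.94 in the other day 1 libraries. Each of the naïve, day 1 contralateral and day 1 injured groups thus held 1 library with these genes high. Whether the labels of these 3 libraries are right was not tested, and counts of the comparisons are therefore also given without them. At day 7 the injured libraries were at 59.1 to 83.3 CPM of Timp1 and the contralateral ones at 10.1 to 11.4.

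**Figure D4:**
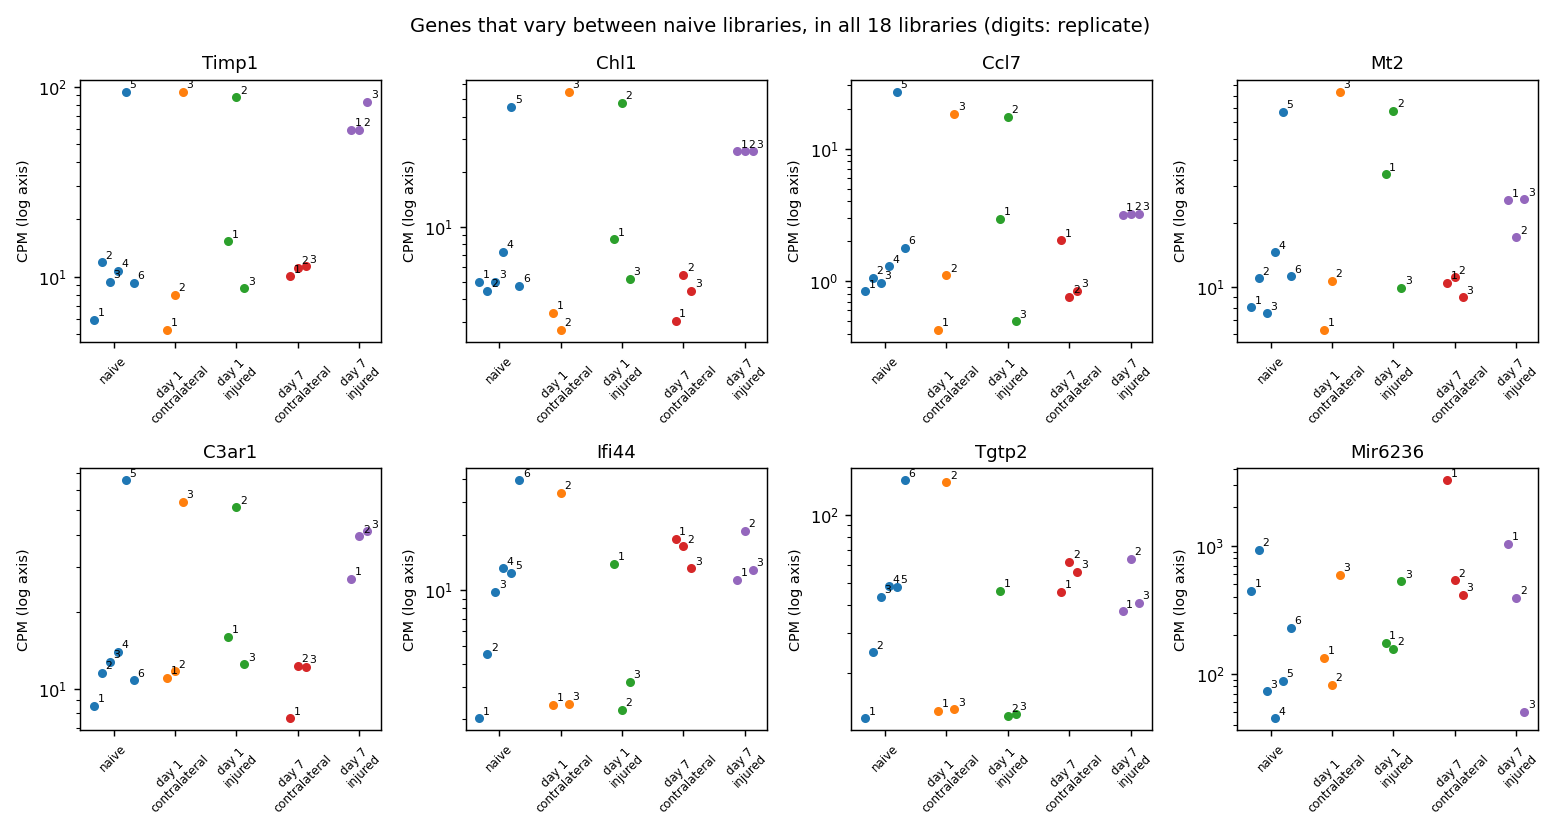
CPM (log axis), normalised over all 18 libraries, of 8 genes that vary between naïve libraries, by group, with each point labelled by its replicate number. Naïve replicate 5 (Timp1 at 94.1 CPM) lies with day 1 contralateral replicate 3 (93.8) and day 1 injured replicate 2 (87.7), and naïve replicate 6 (Ifi44 at 39.4 CPM) with day 1 contralateral replicate 2 (33.7).

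A second block was made of interferon-stimulated genes, which cells switch on through STAT and IRF factors after sensing interferon. All 11 listed genes were at or above 1 TPM, and 9 had a CV above 0.5. The list summed to 0.0422% of nuclear protein-coding TPM in replicate 1, 0.0630% in replicate 2, 0.0936% in replicate 3, 0.130% in replicate 4, 0.103% in replicate 5 and 0.203% in replicate 6, a 4.81-fold range. Replicate 1 was lowest, replicate 6 highest and the others lay between them. The antiviral gene Ifi44 ranged from 2.11 CPM in replicate 1 to 40.8 in replicate 6, with a median of 11.6. The ubiquitin-like modifier Isg15 ranged from 14.9 to 102.96 TPM with a median of 42.1, and Rsad2, an antiviral enzyme and the most abundant of the list, from 28.5 to 75.6 with a median of 43.6. The interferon-induced GTPases Tgtp1 (4.17 to 48.1 CPM) and Tgtp2 (13.2 to 146 CPM), which are close copies of each other, were also highest in replicate 6. In the other groups, the list held 0.198% in day 1 contralateral replicate 2 and 0.0422% and 0.0459% in replicates 1 and 3 of that group. Day 1 injured replicate 1 held 0.133%, and replicates 2 and 3 held 0.0445% and 0.0436%. The day 7 contralateral libraries held 0.173%, 0.115% and 0.107%, and the day 7 injured ones 0.0776%, 0.107% and 0.0845%. Both day 1 groups thus held 1 library with the list high, and whether the labels of naïve replicate 6 and of these libraries are right was not tested.

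Promoters were read because these genes moved together. The windows span 250 bases before to 50 after each gene's start (RefSeq, GRCm38.p6), and were searched on both strands for GAAA, any 2 bases and GAAA again, a core of the interferon-stimulated response element. Of the 11 listed genes 8 had a window, and 5 of these held a match, with none in Ifi44, Irf7 and Oasl2. Of all 27025 genes with a window 3.99% held one, and of the 11650 of at least 1 CPM in naïve libraries 4.03%. Windows of the most abundant gene and of a defining gene of the list are shown with matches in capitals. They are Rsad2 at chr12:26456403-26456702 with 1 match and Isg15 at chr4:156200769-156201068 with 3 overlapping ones. Both windows are written along the minus strand. The Isg15 matches lie on the strand shown, and the Rsad2 match, which appears as TTTC, 2 bases and TTTC, lies on the opposite strand.
Rsad2: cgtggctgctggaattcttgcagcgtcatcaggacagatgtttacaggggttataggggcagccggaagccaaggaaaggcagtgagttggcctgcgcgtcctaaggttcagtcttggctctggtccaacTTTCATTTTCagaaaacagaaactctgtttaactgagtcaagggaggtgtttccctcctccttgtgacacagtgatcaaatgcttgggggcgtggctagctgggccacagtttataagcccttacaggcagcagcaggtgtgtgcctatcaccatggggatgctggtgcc
Isg15: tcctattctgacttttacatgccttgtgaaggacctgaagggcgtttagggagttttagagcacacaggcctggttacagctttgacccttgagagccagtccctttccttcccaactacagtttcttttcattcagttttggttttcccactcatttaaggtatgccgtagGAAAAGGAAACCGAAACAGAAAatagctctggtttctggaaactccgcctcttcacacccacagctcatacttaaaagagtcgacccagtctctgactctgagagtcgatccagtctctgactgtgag
Among the 200 genes of at least 5 CPM with the largest CV, 66 were highest in replicate 6, and 29 of the 46 of these with a window (63.0%) held the motif. Of the 58 that were highest in replicate 5, 34 had a window and 2 of these (5.88%) held it. The genes highest in replicate 6 include members of the list already searched, such as Isg15, Ifit1 and Bst2. Both sets were also chosen from these same data. The higher share is therefore no separate result. A match describes the letters only.

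The immunoglobulin constant gene Ighg2c reached 58.5 CPM in replicate 2 and stood between 0.291 and 5.20 in the others. Mir6236 stood at 466, 944, 75.5, 46.2, 92.5 and 236 CPM in replicates 1 to 6, and Lars2, the mitochondrial leucyl-tRNA synthetase, at 1726, 2584, 269, 182, 289 and 761 CPM. Both were highest in replicate 2, next in replicate 1 and lowest in replicate 4. Lars2 is listed here among annotations that can take up reads of ribosomal RNA, so that its values may not be those of the synthetase transcript, which was not tested. Mir6236 leaves an effective length of 17.4 to 19.5 bases, and its reads come from total RNA and not from a small RNA library. The rest of the 30 most variable genes were mainly pseudogenes or models of near copies, such as Rps27a-ps2, which stood at 21.1 CPM in replicate 1 and at 0 in replicates 5 and 6, Rpl10-ps1, Rpl14-ps1, Gm6472, Gm5537, Gm10443, Gm10925 and the histone gene Hist2h2aa2. Hist2h2aa2 ranged from 0 CPM in replicate 5 to 258 in replicate 6. Reads of such copies can be moved between them by the estimation, so that these values are uncertain. Further genes were the small nuclear RNA Gm24924, the models Gm14440, Gm49388 and Gm28037, and Chtf8, a subunit of a clamp loader, which stood at 0.567 to 21.8 CPM.

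**Figure D5:**
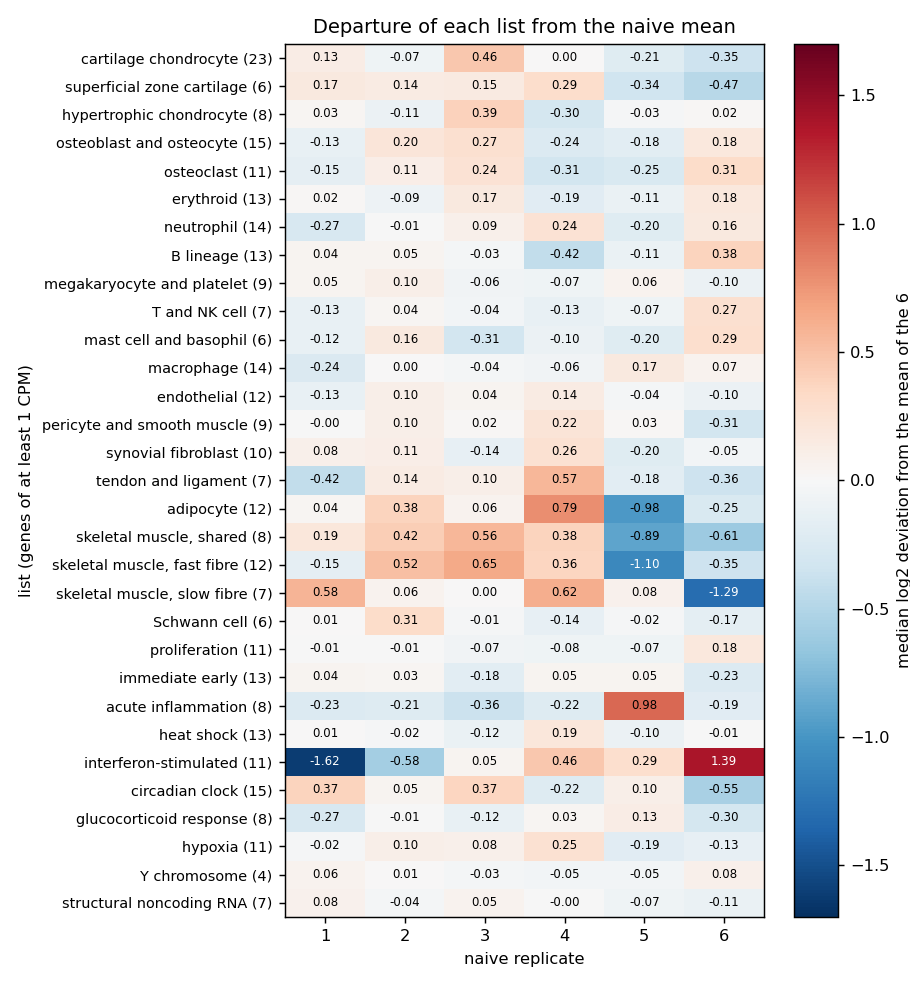
Median log2 deviation of the members of each list from their mean over the 6 naïve libraries, by replicate, for lists of at least 3 genes of 1 CPM or more. Replicate 1 (-1.62) and replicate 6 (1.39) are the extremes of the interferon-stimulated list, and replicate 5 is lowest for fast fibre (-1.10) and adipocyte (-0.98) genes and highest for acute inflammation (0.98).

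The naïve libraries were then compared with the contralateral ones, which ask whether an uninjured knee of an injured mouse differs from a knee of a mouse without rupture. No gene was called by the quasi-likelihood test of edgeR (FDR of at most 0.05 and at least 1.5-fold) against day 1 contralateral libraries, so that 0% of 21262 genes was called in either direction. At an unadjusted p below 0.05 there were 399 genes, where 5% of the genes tested is 1063, DESeq2 called 2 genes higher and none lower in naïve libraries, and limma-voom called none. Against day 7 contralateral libraries 0% was called in either direction as well, with 3220 genes at an unadjusted p below 0.05, a lowest FDR of 0.248, 8 genes lower by DESeq2 and none by limma-voom. The counts of edgeR were still 0 without each single library, and without naïve replicate 5, day 1 contralateral replicate 3 and day 1 injured replicate 2 together. With 3 contralateral libraries in each group this does not show that the knees were alike. In simulated counts with 200 genes changed 3-fold, 162 were called in the day 1 and 163 in the day 7 comparison. These counts were drawn for each gene apart, without blocks of genes that move together or libraries that share mice. They therefore do not tell how many real changes were missed. Of the day 7 contralateral libraries, replicate 1 stood apart, with an erythroid list of 22.5% against 13.4% and 14.05% in replicates 2 and 3. Its mitochondrial share of TPM was 0.302%, against 3.51% and 3.12%, and its nuclear protein-coding share 12.2%, against 31.0% and 25.9%. It had 10464 genes of at least 1 TPM, against 14514 and 13904, and its 10 most abundant genes held 42.5% of its counts, against 18.4% and 22.5%. Its part in the day 7 contralateral counts was checked only by leaving it out, which also gave 0 calls by edgeR.

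Against day 7 injured libraries the naïve baseline differed widely. Of 21262 genes, 1185 (5.57%) were higher and 2075 (9.76%) lower in naïve libraries. All 7 genes of the tendon and ligament list were lower in naïve libraries, among them Tnmd (6.97 ± 3.69 against 88.4 ± 5.42 CPM; log2 fold change -3.66, SE 0.35, FDR 6.84e-07) and the tendon factor Scx (2.96 ± 1.00 against 22.5 ± 1.24 CPM). Of the 10 synovial fibroblast genes 5 were lower and none higher, with Fap at 65.4 ± 6.35 against 138 ± 9.19 CPM, and the same count of 5 was lower among 12 endothelial and among 10 pericyte and smooth muscle genes. Of the 23 chondrocyte genes 5 were lower, namely Acan, Col11a1, Comp, Sox5 and Sox9, and 1, Cytl1, was higher in naïve libraries. Col2a1 was not called (3240 ± 886 against 3800 ± 276 CPM, FDR 0.642).

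Part of the adipocyte, erythroid and platelet genes were higher in naïve libraries, which held for 5.57% of all genes. Of the 12 adipocyte genes 7 were higher in naïve libraries and none lower, with Cfd at 241 ± 104 against 79.7 ± 22.4 CPM. Of the 13 erythroid genes 6 and of the 9 platelet genes 4 were higher, with Alas2 at 707 ± 83.1 against 420 ± 69.0 CPM. Other marrow lists were not called beyond single genes: none of 14 neutrophil, 7 T and NK cell and 7 mast cell and basophil genes, and 1 of 13 B lineage genes (Ms4a1). All 14 neutrophil genes nonetheless had a fold change above 0, with a median of 0.375 on the log2 scale, and their list held 5.13% ± 0.882 of nuclear protein-coding TPM in naïve against 3.46% ± 0.513 in injured libraries. In the muscle lists 3 of 7 slow fibre, 1 of 12 fast fibre and 1 of 8 shared genes were higher, and the median log2 fold change was 1.39, 0.637 and 0.913. Whether these lists differ from each other was not tested. The part of tissue makeup, of lost cartilage and of pools of unlike size in the calls was not tested. The median log2 fold change was 1.40 over the adipocyte, 0.617 over the erythroid and -2.31 over the tendon list, and 0.0578 over all genes.

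Among called genes with separate groups, the 5 with the largest differences upward in naïve libraries were Adig, a gene of adipocytes (2.53 ± 1.48 against 0.396 ± 0.0709 CPM), Gm21982, the complement component C7 (11.7 ± 6.14 against 2.09 ± 0.788), Cytl1 (80.7 ± 28.6 against 16.1 ± 1.34), a secreted protein of cartilage, and the muscle gene Ankrd2 (7.46 ± 4.00 against 1.52 ± 0.267). The 5 with the largest fitted fold changes downward were C1qtnf3 (8.80 ± 2.93 against 721 ± 153 CPM), the membrane protein Lrrc15 (4.02 ± 1.53 against 144 ± 41.3), the tenascin Tnn (26.2 ± 8.65 against 859 ± 209), the choline transporter Slc5a7 and the pseudogene Gm47893. The last pair was at 0 in all 6 naïve libraries, so that its fitted fold changes depend on the prior count and its place among the 5 is not a rank of size. Against a floor of 3 counts per library Slc5a7 was at least 8.09-fold and Gm47893 at least 12.1-fold lower in naïve than in injured libraries. Adig was not called without any one of the injured libraries, and Gm47893 not without injured replicate 1 or 2. By limma-voom Adig, C7 and Ankrd2 were not called, and by DESeq2 Slc5a7 was not.

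The number of genes higher in naïve libraries fell to 672 without day 7 injured replicate 2 and to 622 without replicate 3. Naïve replicate 5 decided single genes. With it, Timp1 was not called against injured libraries (log2 fold change -1.51, SE 0.90, FDR 0.236 by edgeR), and without it the change was -2.83 (SE 0.75, FDR 0.0115). Chl1, Ptx3, Mmp3, C3ar1 and Pdpn likewise passed an FDR of 0.05 only without it. Tnfaip6 passed it in both (FDR 0.0116 and 0.00117), and Ccl7, Mt2 and Msr1 in neither. These genes were chosen for a spread to which replicate 5 contributes most, so that a shift towards lower naïve values without it follows from the choice. Leaving out all 3 libraries that shared these levels gave 1201 higher and 2168 lower genes.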

How the data were processed

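Total RNA of pooled knee cartilage caps was depleted of ribosomal RNA and sequenced with a stranded kit. The authors trimmed the reads and estimated transcript abundance by kallisto pseudo-alignment (GRCm38), although the submitters' processing notes list GRCh38. They deposited, per transcript, estimated counts, TPM and effective lengths, with no further normalization by the authors. Of 137436 transcripts, 135107 (98.3%) were matched without version to GENCODE vM21, and the 2329 others, with 0.819% to 2.33% of the naïve estimated counts, were left out. Values were summed over 49184 genes and counts rounded.

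Lists were described by summed TPM and mean ± SD over libraries. Biological CV is the square root of the squared CV of TMM-normalised counts less the mean of 1 over the expected counts, set to 0 where negative, for genes of at least 1 CPM. On simulated counts with 200 genes at a CV of 0.8 among 16179, 191 were among the top 200. Groups were compared by edgeR 4.0.16 (R 4.3.3; quasi-likelihood, TMM, low-count filter, Benjamini-Hochberg adjustment) on all 18 libraries in 5 groups, with DESeq2 1.42.0, limma-voom (limma 3.58.1) and other settings as alternatives. On counts simulated for each gene apart, with 200 genes changed 3-fold, 153 were called between naïve and day 7 injured libraries, with 2 unchanged ones. The knees that share mice are not labelled, so the correlation between them could not be modelled as the study did.

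Genes were named by a rule: the 25 protein-coding and 10 other most abundant, each list's most abundant and defining genes, the 30 of largest CV (at least 5 CPM), the 10 steadiest (at least 100 CPM), and the 5 largest changes each way. The 34 lists hold 345 entries, of which 339 were found. Other list members are named as examples, chosen after their values were seen. The members and lists were chosen with earlier results of these data known. Some genes that met the rule are not reported here. The study left out 1 ACL library for poor mapping without naming it in the labels, and all 18 libraries were used here. Depth limits single low genes, and limits set by 3 counts cover counting error only.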

Additional observations from a re-analysis of the deposited data

Results flagged for a closer look

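In 24 of 204 groups of 6 naïve values, the highest or the lowest library lay apart from the next by more than the 95% critical value of Dixon's ratio of gap to range. Both ends were tested, which by chance gives about 1 in 20 groups of values not chosen for their spread, and in each of the 24 it was the highest library. Of the 24, 16 were among 29 genes named for their large CV over the same 6 values, so that the total is no measure of excess. Of the 165 groups not chosen by CV, 7 lay apart, where chance gives about 8.25. Flagged lists also hold flagged genes. Replicate 5 was the library apart for 13 of the 24: the acute inflammation list (62.5 TPM), the glucocorticoid response list (250.65 TPM, of which Mt2 is a member), Ccl7 (28.2 CPM), Timp1 (98.4), Chl1 (47.5), Ptx3 (26.4), Tnfaip6 (20.5), Mt2 (70.1), Mmp3 (28.5), C3ar1 (68.4), Pdpn (47.6), Msr1 (51.6) and Ywhah (159), the last being one of the steadiest genes, with a range of only 151 to 159 CPM. Replicate 6 was apart for Ifi44 (40.8 CPM), Tgtp2 (146), Tgtp1 (48.1) and the mast cell and basophil list (37.7 TPM). Replicate 3 was apart for Col2a1 (593 TPM), Sparc (861), Hist1h4k (1516), Ihh (1.87) and Gm28037 (19.2 CPM). Replicate 2 was apart for Ighg2c (58.5 CPM) and Gm10925 (96.1).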

How the results depend on the processing

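Rescaling TPM to nuclear protein-coding genes raised every sum: to 3788 from 922 TPM for the chondrocyte list, 11026 from 2677 for osteoblast, 158510 from 38508 for erythroid, 51342 from 12361 for neutrophil, 7290 from 1755 for fast fibre, 1947 from 463 for adipocyte and 308 from 73.8 for synovial fibroblast. This follows from the smaller total. The median CV of 0.104 became 0.117 with total counts only and 0.0934 for genes of at least 5 CPM, and 0.0967 to 0.104 without single libraries. The count of genes with a CV above 0.5 was 266 to 375 without single libraries, an alternative added after seeing the data, as were leaving out 3 libraries together and the median CVs of lists without single libraries. Against day 1 contralateral libraries DESeq2 called 2 genes higher, and against day 7 contralateral libraries 8 lower, where edgeR called none. Against day 7 injured libraries, genes higher in naïve libraries numbered 393 at an FDR of 0.01, 1937 with no fold limit, and 622 to 1267 without single libraries, and genes lower numbered 3251 with no fold limit and 1676 to 2175 without single libraries. Under the other settings these counts stayed within 1.5 times. Among single genes, 9 values lost their call in the same direction, of Adig, C7, Ankrd2, Gm47893 and Slc5a7. No paired analysis was possible because the labels do not number the pools and do not tie libraries to mice.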

Other observations

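The heat shock list held 0.247% ± 0.00875 (SD, n = 6) of the nuclear protein-coding TPM, with the chaperone Hspa8 as its most abundant gene (316 TPM). The hypoxia list held 0.106% ± 0.0116, with the glycolytic enzyme Ldha (127 TPM), and the immediate early list 0.0364% ± 0.00425, with Btg2 (24.9 TPM).

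Klf1, a transcription factor of red cell precursors, stood at 2.43 TPM in naïve replicate 6 and at most at 0.0238 TPM in the others. Of the circadian clock list, Dbp stood at 14.3, 8.64, 18.3, 4.56, 11.01 and 5.40 TPM in replicates 1 to 6, and Arntl, which peaks at the opposite time of day, at 1.66, 1.61, 1.54, 2.68, 2.15 and 2.77. Replicates 4 and 6 had the lowest Dbp and the highest Arntl. Times of death are not given in the sources used here, and their part in the spread was not tested.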
